A study of Mus musculus with 9 samples.

Results

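Histone genes were examined in total RNA of mouse macrophages that lack tristetraprolin (TTP, gene Zfp36), an RNA-binding protein that binds AU-rich elements of mRNAs and promotes their decay. The members are the genes listed in the comparison of TTP-AA with TTP whose symbol begins with Hist1h to Hist4h, H2af, H3f3 or H1f. They number 69 of 13205 listed genes. Of these, 60 are clustered Hist genes and 9 are histone variant genes. The level table held 16 further genes with such symbols that were not among the listed genes, 9 of them clustered and 7 variant, and their scaled levels lay between 0.0755 and 10.4 reads per library.

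The cells were bone marrow-derived macrophages from TTP-knockout mice, immortalized with human c-myc and a mutant human Ras, selected for CD11b and F4/80, and transduced with a retroviral doxycycline-inducible vector that encoded GFP, GFP-TTP (called TTP here) or GFP-TTP-AA (S52A, S178A, called TTP-AA). In TTP-AA, the serines at which the kinase MK2 phosphorylates TTP are replaced by alanine. All 3 groups received doxycycline at 1 µg/ml for 6 h and LPS at 1 µg/ml for 1 h, and each had 3 libraries. Thus all groups share the knockout, the oncogenes, doxycycline and LPS, and each group is a transduced line, so that line and transgene cannot be told apart. The labels call the 3 libraries of a group biological replicates and do not state separate transductions.

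Replication-dependent histone genes lie in clusters, lack introns for the most part, and are transcribed mainly in S phase. Their mRNAs end in a conserved stem-loop in place of a poly(A) tail, which is bound by SLBP and cut by a machinery that contains the U7 snRNP. Variant histone genes lie outside the clusters, are expressed through the cell cycle or in resting cells, and usually make polyadenylated mRNA. Ribosomal RNA was removed here without selecting for poly(A), so both kinds were measured in the same libraries. The comparisons ask how the level of each kind differed when TTP or its phosphosite mutant was expressed.

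The stem-loop is printed here because it is the feature by which the 2 kinds of mRNA differ. It was searched for in the annotated bases after the stop codon (GENCODE M21, GRCm38). A match was 16 bases with at most 1 letter off the known histone consensus, and a stem of 6 base pairs around a loop of 4 bases. Stem-loops further from the consensus would not be found. Of 44 clustered genes with at least 16 such bases, 38 (86.4%) held it. The share was 1 of 8 among variant genes, and 0.33% of 11515 other listed coding genes. With no letter off the consensus, the counts stayed at 38 clustered genes and 1 variant gene, and the share of other genes was 0.0521%. H2afx, whose mRNA is known to occur both with the stem-loop end and with a poly(A) tail, was the variant gene. In 12 further clustered genes the annotation ended fewer than 16 bases after the stop codon, so the search says nothing of them. The first base of the stem-loop lay 22 to 55 bases after the stop codon in clustered genes, with a median of 32.5. The annotations of Hist1h1a (48 bases) and Hist2h3b (37 bases) may therefore end before a stem-loop, so these genes are not clear negatives. The DNA-strand sequences of 1 gene of each main form follow, with stem and loop in capitals.
Hist1h1c: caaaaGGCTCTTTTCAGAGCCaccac
Hist1h2bb: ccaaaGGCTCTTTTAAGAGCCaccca
Hist1h4f: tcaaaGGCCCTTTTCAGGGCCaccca
Hist1h4b: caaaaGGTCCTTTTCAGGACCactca
Hist1h3g: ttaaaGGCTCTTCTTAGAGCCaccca
H2afx: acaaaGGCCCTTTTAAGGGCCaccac

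The form of Hist1h1c was shared by 19 genes, none of them encoding H4, and that of Hist1h2bb by 6, also without an H4 gene. The form of Hist1h4f occurred in 6 genes, all encoding H4. All 11 H4 genes with a stem-loop had a stem that starts GGCCCT or GGTCCT, whereas the 27 other clustered genes had GGCTCT. H2afx carried the stem of the H4 genes. The AU-rich motif TATTTAT, which resembles the core of TTP sites, was found after the stop codon of 1 of the 44 clustered genes (2.27%), Hist1h1d, on an annotated transcript that runs on for 4931 bases. Among the 8 variant genes it was found in H2afj, H2afv and H3f3b (37.5%), and in 30.2% of the other listed coding genes. The shorter motif ATTTA was in 38.6% of the clustered, 87.5% of the variant and 71.2% of the other genes, and annotated transcripts differed in length after the stop codon (medians of 177, 1170 and 1366 bases).

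The promoters of the clustered H1 genes are shown next, because Hist1h1a departed from the other H1 genes. Linker histone H1 binds nucleosomes where DNA enters and leaves, and H1 promoters are known for an upstream element with the letters AAACACA. RefSeq promoters (GRCm38.p6, 250 bases before to 50 after the start site) matched 58 of the 69 members. On either strand AAACACA occurred in 5 of 6 clustered H1 promoters, in 1 of 14 H2A promoters, in none of the H2B, H3 and H4 promoters, and in 7.18% of 32851 promoters. Hist1h1a was the H1 gene whose window did not hold these letters. CCAAT was present in all 40 clustered H1, H2A, H2B and H3 promoters, in 3 of 11 H4 promoters and in 37.4% of all promoters. TATAAA was present in 30 of 51 clustered promoters (58.8%) and 13.6% of all. No motifs overlap each other in the sequences printed here. The 150 bases before the start site of 3 H1 genes follow with the motifs in capitals, CCAAT also where it reads ATTGG.
Hist1h1a (chr13:23763518-23763667, plus strand): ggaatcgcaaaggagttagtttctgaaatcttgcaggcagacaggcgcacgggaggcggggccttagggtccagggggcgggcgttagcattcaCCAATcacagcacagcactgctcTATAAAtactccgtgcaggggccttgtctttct
Hist1h1b (chr13:21780626-21780775, minus strand): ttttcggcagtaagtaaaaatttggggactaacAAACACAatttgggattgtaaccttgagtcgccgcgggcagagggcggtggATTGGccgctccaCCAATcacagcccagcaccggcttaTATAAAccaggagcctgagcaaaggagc
Hist1h1e (chr13:23622559-23622708, minus strand): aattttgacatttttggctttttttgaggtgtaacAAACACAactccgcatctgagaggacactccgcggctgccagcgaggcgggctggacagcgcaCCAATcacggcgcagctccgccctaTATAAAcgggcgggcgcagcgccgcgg

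In Hist1h1a the CCAAT began 56 and the TATAAA 33 bases before the start site. Hist1h1b held AAACACA at 117 bases, CCAAT at 53 and TATAAA at 28, and Hist1h1e held them at 115, 52 and 27. The match of letters is a description and not a test of a binding site.

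The deposited level table holds fitted means of the authors' model and no measured value per library. None of its values was 0, and its log2 values departed from the sum of a library, a group and a replicate-number term by at most 1.2e-14. Replicates therefore carry no scatter of their own, and the difference between 2 groups is the same for every replicate number apart from the library factor. An order of groups that recurs across replicate numbers is thus the same fitted term repeated, as is an order of replicate numbers across groups. Ranges that do or do not overlap reflect the sizes of these terms and are not agreement between libraries. No SD, p-value or test between groups could be had from the replicates. Levels are given as scaled reads, that is, fitted reads divided by a factor per library that sets the median of the listed genes equal. Differences are given on the log2 scale with the counting error of the fitted reads, which is the smallest error these reads allow and leaves out all variation between cultures. The fitted reads summed to between 21482954 (TTP 1) and 102613526 (TTP-AA 3). A difference was counted where it reached 1.5-fold.

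Zfp36 itself had levels of 1744, 1423 and 890 in GFP 1 to 3, 1787, 1447 and 914 in TTP and 2828, 2298 and 1443 in TTP-AA. The GFP libraries of knockout cells also held reads of this gene, so its level did not set TTP apart from GFP and gave no check of that label. All 7 macrophage markers were among the listed genes, and none of the markers of T cells, B cells, fibroblasts or epithelial cells was. The summed level of the macrophage markers ranged from 553759 to 771459 in GFP, from 455647 to 628598 in TTP and from 632430 to 875775 in TTP-AA. In TTP compared with GFP the median marker had -0.28, with a range from -1.21 (Fcgr1) to 0.06 (Itgam) and 1 of 7 above 0. In TTP-AA compared with GFP the median was 0.18, with a range from -0.39 (Fcgr1) to 0.68 (Emr1, the F4/80 gene) and 5 of 7 above 0. Emr1 was at -0.76 in TTP and thus, like Hist1h1a, on opposite sides of GFP in TTP and TTP-AA, and TTP-AA exceeded TTP for each of the 7 markers. Whether this bears on the histone genes was not tested.

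Clustered histone RNA was abundant in all 3 groups. Its fitted reads made up 0.532, 0.506 and 0.583% of all fitted reads in GFP 1 to 3, 0.579, 0.553 and 0.632% in TTP, and 0.568, 0.539 and 0.621% in TTP-AA. TTP was highest and GFP lowest, an order that fitted means repeat in each replicate number. Replicate 3 was above replicates 1 and 2, likewise in every group, so that the ranges of the groups overlap. Variant genes took 0.228, 0.228 and 0.260% in GFP, 0.224, 0.226 and 0.255% in TTP, and 0.216, 0.217 and 0.245% in TTP-AA. The authors' mean over all libraries was at least 1000 for 47 of the 60 clustered genes, with a range from 21.1 to 17632. It was at least 50 in 57 clustered and 8 variant genes.

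Compared per annotated exonic length, in scaled reads per kb and per 1000000 reads of the mean library, the highest clustered gene was the linker histone gene Hist1h1b at 577, followed by the H4 gene Hist1h4f at 507, Hist1h1c at 309, the H2A gene Hist2h2ac at 305 and the H4 gene Hist1h4h at 270. The lowest were Hist3h2a at 0.852, the testis H1 gene Hist1h1t at 0.566 and Hist1h2br at 0.304. Thus the H1 genes alone spanned the range from 0.566 to 577. The median was 93.7 for the 6 H1, 79.6 for 15 H2A, 51.8 for 13 H2B, 121 for 11 H3 and 142 for 12 H4 genes, the other 3 of the 16 H2B genes (Hist1h2bh, Hist1h2bm and Hist2h2bb) having no annotated length under their name. These values depend on the annotated length: Hist1h1d, with a mean of 14717 reads, had 54.8 per kb over an annotation of 7425 bases. Among variant genes H3f3b, which encodes the replacement histone H3.3, was highest at 358, and H2afx, whose product is phosphorylated at DNA breaks, had 216. H3f3a, the other H3.3 gene, had 115, H2afz 84.1, H2afj 75.3, H1f0 39.4, H2afv 29.6 and the macroH2A gene H2afy 19.8. H3f3aos, an antisense RNA that overlaps H3f3a on the other strand, had 0.130.

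**Figure D1:**
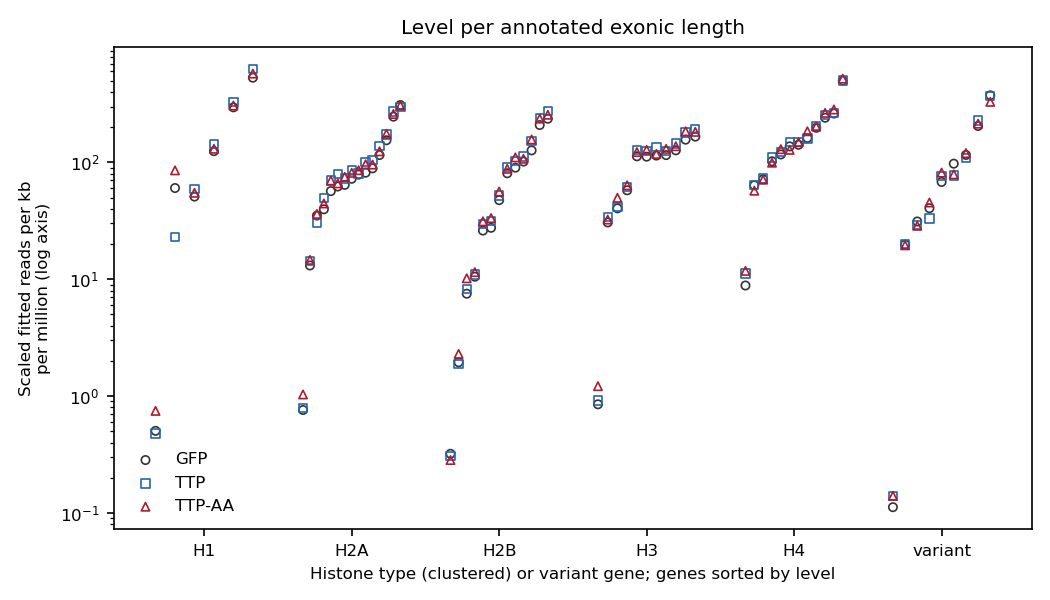
Level of each histone gene per annotated exonic length, in scaled fitted reads per kb and per 1000000 reads on a log axis, for clustered genes by histone type and for variant genes, with a circle for GFP, a square for TTP and a triangle for TTP-AA. The 3 marks of a gene lie close together compared with the range between genes (0.304 to 577 among clustered genes), and the widest gap is that of Hist1h1a, the second gene from the left in H1.

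In TTP compared with GFP most clustered genes were slightly higher. The median log2 difference was 0.14 over 60 clustered genes, against 0.00 over the 13136 other listed genes and 0.02 over the 6325 of those with a mean of at least 1000. A difference above 0 was found in 53 of 60 clustered genes (88.3%), and in 49.7% of all listed genes. Many clustered genes have near-identical sequences, so they are not independent observations. No clustered gene was 1.5-fold higher, where the share over all listed genes was 1.03%. A single gene, Hist1h1a, was 1.5-fold lower, where the share was 2.84%. Without Hist1h1a the largest difference in size was 0.36. In TTP-AA compared with GFP the median was 0.13, with 54 of 60 above 0 (90%, against 50.4% of all listed genes), and none was 1.5-fold higher or lower, where the shares over all listed genes were 4.32 and 1.98%. Both comparisons share the GFP libraries. In TTP-AA compared with TTP, the median was 0.02 and 33 of 60 genes were above 0 (55%, against 50.0%). Hist1h1a and Hist1h1t were 1.5-fold higher (share over all listed genes 6.89%) and none was 1.5-fold lower (2.98%).

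Differences between replicate numbers were of similar size. In clustered genes the median difference was 0.03 for replicate 2 minus 1, 0.14 for replicate 3 minus 1 and 0.12 for replicate 3 minus 2. For 33 of the 60 genes the SD of the replicate-number term exceeded the SD of the group term (60.0% of all listed genes). The H3 gene Hist1h3d had levels of 1238, 1121 and 1922 in GFP, 1379, 1239 and 2144 in TTP, and 1312, 1183 and 2036 in TTP-AA. Its replicate 3 was highest in each group and the groups overlap. Replicate 3 of Hist1h4a was lowest in each group, at 1856, 1967 and 2062 against 2471 to 2872 in the other libraries.

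Many clustered genes could not be told apart by their reads. Near-identical coding sequences mean that many 50-base reads match several histone genes, of which the authors kept up to 2 placements. Of 58 clustered genes with an annotated transcript, 28 had fewer than 50% of their 50-base windows unique among all annotated transcripts, and 13 had at least 80%. Over those 13 genes, which include 5 H1 and 4 H4 genes and 3 on chromosome 3, the median was 0.038 in TTP compared with GFP and 0.12 in TTP-AA compared with GFP. The value of 0.038 is that of Hist2h2bb, whose windows are those of an annotated lincRNA. Over the 28 genes under 50% the TTP median was 0.16, and over the 30 with at least 50% it was 0.11, with 26 of 30 above 0. Single levels of these genes are therefore uncertain. Hist2h3b, with 0% unique windows, had no transcript window by which its reads could be told from those of other genes. Counts of clustered genes above 0 are limited in the same way, since copies that may share reads are not separate observations.

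**Figure D2:**
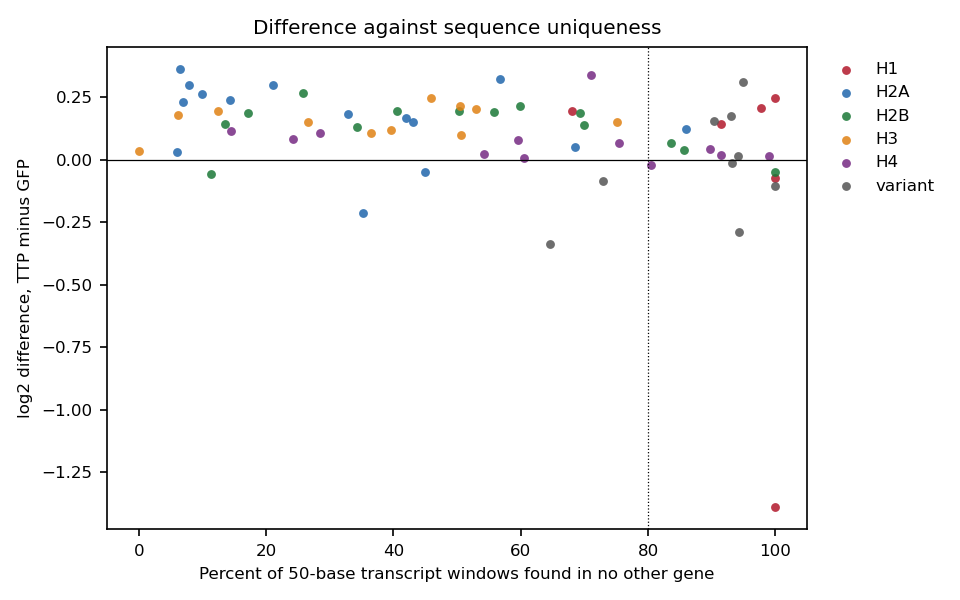
The log2 difference of TTP minus GFP (vertical axis) against the percent of 50-base transcript windows found in no other gene (horizontal axis), 1 point per histone gene with an annotated transcript, coloured by type. Most points left of 50% lie above 0, the points right of the dotted line at 80% scatter on both sides of 0, and Hist1h1a stands alone at -1.39 and 100%.

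The comparison also varied with the chromosome. The 50 clustered genes on chromosome 13 (the Hist1 genes) had a median of 0.16 in TTP compared with GFP, while the 482 other listed genes of that chromosome had -0.05. The 7 on chromosome 3 (Hist2) had 0.02, beside -0.19 for the 649 other listed genes there. Relative to the median of the other genes of its chromosome, the clustered median was 0.20 in TTP compared with GFP and 0.13 in TTP-AA compared with GFP. What lowers the genes of chromosome 3 in TTP was not tested. Among the Hist1 genes on chromosome 13, medians in TTP compared with GFP were 0.24 for 12 H2A, 0.19 for 13 H2B, 0.18 for 9 H3, 0.07 for 10 H4 and 0.17 for 6 H1 genes. Of these 50 genes, 46 were above 0, with 9 of 10 H4 and 4 of 6 H1 genes. The share was 38.4% of the other listed genes of this chromosome and 49.7% of all listed genes. Over the 34 H2A, H2B and H3 genes alone, a grouping that was not planned, 33 were above 0. The exception was Hist1h2br at -0.06, a gene with levels of 20.3 to 30.2.

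**Figure D3:**
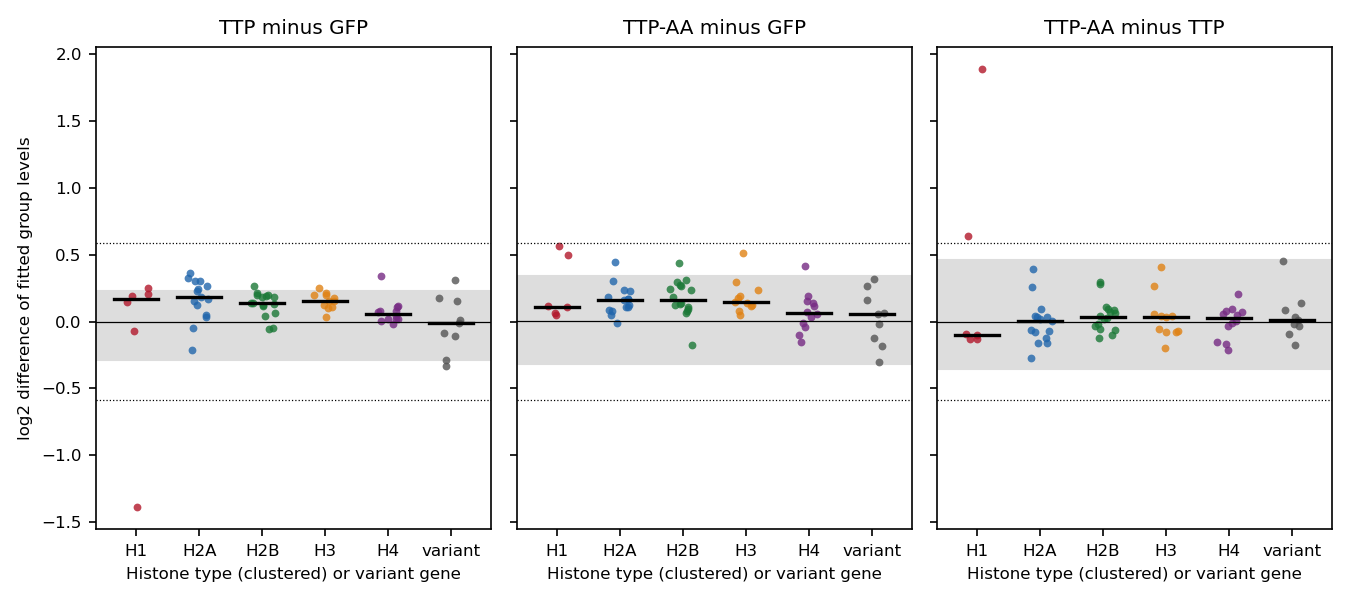
Log2 difference between fitted group levels for each histone gene (point, spread sideways for visibility) by histone type, in 3 panels for the 3 comparisons, with the type's median (bar), the 10th to 90th percentile of all listed genes (grey band), their median (line) and the 1.5-fold limits (dotted). In the left and middle panels most clustered genes lie above 0 within or near the band, and Hist1h1a lies at -1.39 in the left and 1.89 in the right panel.

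Among the linker histone genes, Hist1h1a differed most from the others. Hist1h1a (ENSMUSG00000049539, chromosome 13, 23763666 to 23764406, plus strand, GRCm38), which encodes H1.1, had levels of 1685, 1372 and 1841 in GFP, 644, 521 and 705 in TTP, and 2390, 1937 and 2610 in TTP-AA. The groups did not overlap, and TTP lay below GFP and TTP-AA above it. The log2 difference was -1.39 with a counting error of 0.041 for TTP compared with GFP (0.382-fold), 0.50 with 0.025 for TTP-AA compared with GFP (1.42-fold), and 1.89 with 0.038 for TTP-AA compared with TTP (3.71-fold). All of its 50-base windows were unique, and no annotated gene overlapped it. Its annotation holds 48 bases after the stop codon, in which no stem-loop was found, and the motif ATTTA was not found there either. Stem-loops of clustered genes began 22 to 55 bases after the stop codon, so the annotation may end before it.

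The 4 abundant H1 genes of the same cluster did not share this pattern. Hist1h1b had 13680, 12279 and 17356 in GFP, 16293, 14514 and 20702 in TTP, and 14851, 13274 and 18834 in TTP-AA. It was highest in TTP, but the ranges of the groups overlap. Its differences from GFP were 0.25 in TTP and 0.12 in TTP-AA. Hist1h1c, Hist1h1d and Hist1h1e were 0.14, 0.21 and 0.19 higher in TTP than in GFP, and 0.05, 0.11 and 0.07 higher in TTP-AA. All 4 were lower in TTP-AA than in TTP, by 0.09 to 0.13, values below the limit of 1.5-fold. Hist1h1t, mainly known from testis, had 15.8, 19.8 and 14.8 scaled reads in GFP, 15.1, 18.7 and 14.1 in TTP, and 23.5, 29.2 and 21.99 in TTP-AA. At this depth its difference between TTP-AA and TTP was 0.64 with a counting error of 0.26. H1f0, the replacement linker histone found in resting and differentiating cells, had 3188, 2899 and 2978 in GFP, 2615, 2360 and 2447 in TTP, and 3573, 3235 and 3336 in TTP-AA. Its groups did not overlap: it was 0.29 lower in TTP than in GFP, 0.16 higher in TTP-AA than in GFP and 0.45 higher in TTP-AA than in TTP. H1f0 thus had the order of Hist1h1a with smaller differences, none of which reached 1.5-fold.

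**Figure D4:**
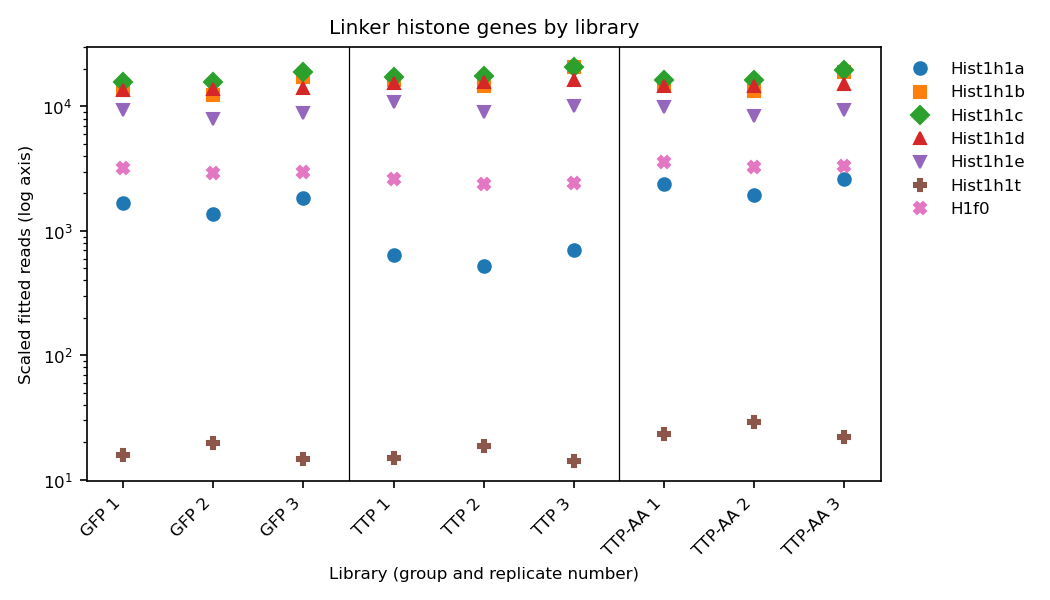
Scaled fitted reads (log axis) of the 6 clustered H1 genes and H1f0 in each of the 9 libraries (horizontal axis), 1 mark shape per gene. Hist1h1a lies at 521 to 705 in TTP and at 1937 to 2610 in TTP-AA, whereas Hist1h1b to Hist1h1e stay between 7989 and 20849 in all libraries.

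Of the core histone genes with a mean of at least 50, the largest differences were moderate. The H2A gene Hist1h2ao had 1073, 1140 and 1034 in GFP, 1384, 1460 and 1336 in TTP, and 1143, 1209 and 1101 in TTP-AA. TTP lay above both other groups without overlap, at 0.36 over GFP, and TTP-AA was 0.28 below TTP. As 6.50% of its windows were unique, most of its possible reads would also match other genes. The H4 gene Hist1h4i (71.1% unique) had 221, 237 and 242 in GFP, 280, 297 and 307 in TTP, and 295, 314 and 323 in TTP-AA. Both TTP forms were above GFP without overlap, by 0.34 and 0.41 with counting errors of 0.076 and 0.068. Hist1h2ae was 0.33 higher in TTP than in GFP and 0.17 higher in TTP-AA. All 15 clustered H2A genes have an annotated gene on the other strand, and whether counting used strand was not stated.

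Of the 7 clustered genes below 0 in TTP compared with GFP, 3 lie on chromosome 3. Hist2h2ab, an H2A gene, had 481, 589 and 634 in GFP, 415, 505 and 548 in TTP, and 498, 607 and 656 in TTP-AA. The groups overlap, and the difference between TTP and GFP was -0.21, beside the median of -0.19 for other genes of its chromosome. Hist2h2ac, the most abundant H2A gene per length, was -0.05 and -0.01 from GFP in TTP and TTP-AA. Hist2h4 had 0.02 and -0.15 from GFP, Hist1h4n 0.12 and -0.10, and Hist1h4k 0.11 and -0.04. Hist1h4n, at -0.21, and the H3 gene Hist1h3g, at -0.20, had the largest negative differences of TTP-AA from TTP after Hist1h2ao.

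The 2 listed genes of the Hist3 cluster on chromosome 11 were highest in TTP-AA. Hist3h2a, which overlaps Trim17, had 56.1, 67.8 and 54.4 in GFP, 58.2, 69.9 and 56.6 in TTP, and 76.4, 91.9 and 74.1 in TTP-AA. Its differences from GFP were 0.05 in TTP and 0.44 in TTP-AA, with counting errors of 0.16 and 0.14. The neighbouring processed pseudogene Hist3h2bb-ps had 0.14 and 0.44, with errors of 0.11 and 0.091. The other listed genes of chromosome 11 had a median of -0.10 in TTP-AA compared with GFP. The gene named Hist2h2bb in the files (ENSMUSG00000050936) had the highest mean of the clustered genes, 17632, and differences from GFP of 0.04 and 0.06. GENCODE M21 gives this identifier to the lincRNA Gm42743, whose span contains Hist2h2bb, so reads of the lincRNA and of an H2B mRNA cannot be told apart.

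**Figure D5:**
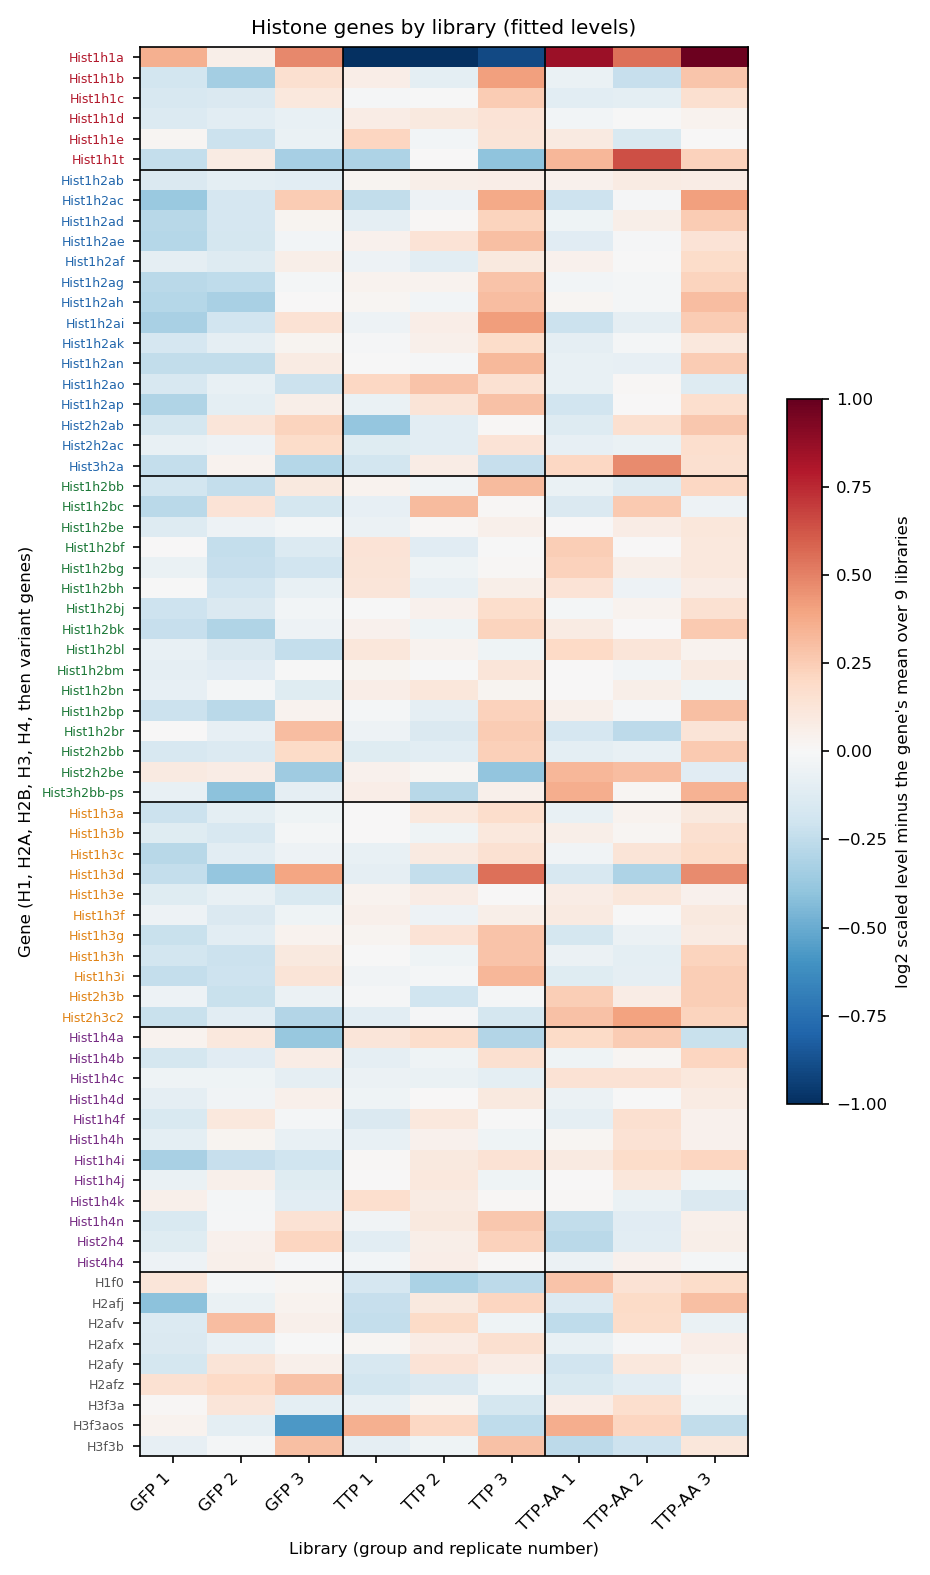
Each row is 1 of the 69 histone genes and each column a library, coloured by the log2 scaled level minus the gene's mean over the 9 libraries (scale limited to -1 to 1), with names coloured by histone type. The row of Hist1h1a is dark blue in TTP and red in TTP-AA, clustered genes are mostly paler blue in GFP, and replicate 3 is redder than replicates 1 and 2 in many rows of every group.

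Variant genes showed no shared direction. The median over 9 genes was -0.01 in TTP compared with GFP, 0.05 in TTP-AA compared with GFP and 0.01 in TTP-AA compared with TTP, and 4, 5 and 5 of 9 genes were above 0. Over all listed genes 49.7, 50.4 and 50.0% were above 0 in these comparisons. None of the 9 was 1.5-fold higher or lower in any comparison, where the shares over all listed genes were 1.03 and 2.84%, 4.32 and 1.98%, and 6.89 and 2.98%, so that 0 of 9 is near the background. H2afz, which encodes H2A.Z, a variant placed at promoters, was the only variant gene besides H2afv lower in both TTP forms by at least 0.1. Its levels were 6006, 6215 and 6619 in GFP, 4767, 4896 and 5261 in TTP, and 4873, 5022 and 5368 in TTP-AA. Both TTP forms lay below GFP without overlap, at -0.34 and -0.30. H2afz lies on chromosome 3, whose other listed genes had medians of -0.19 and -0.10 in the same comparisons, and the part of this shift in its difference was not tested.

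H2afv, which encodes the closely related H2A.Z.2, had 1597, 2169 and 1820 in GFP, 1489, 2007 and 1699 in TTP, and 1468, 1986 and 1673 in TTP-AA. The groups overlap, with differences from GFP of -0.10 and -0.12. H2afj was 0.18 and 0.26 higher in TTP and TTP-AA than in GFP, but its replicates 2 and 3 were 0.34 and 0.44 above replicate 1. H2afx, the variant gene with a stem-loop, was 0.16 higher in TTP and 0.07 higher in TTP-AA, while H2afy had 0.01 and -0.02.

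H3f3b was the most abundant histone gene by reads. Its levels were 36525, 38097 and 47465 in GFP, 36295, 37572 and 47235 in TTP, and 32173, 33416 and 41790 in TTP-AA. GFP and TTP nearly coincided (-0.01), and TTP-AA was lower than GFP by 0.19 on the log2 scale, with overlapping ranges. H3f3a, which encodes the same protein, had -0.09 in TTP and 0.05 in TTP-AA. Of the 3 variant genes with TATTTAT, H2afj was higher than GFP in both TTP forms, H2afv was lower in both, and H3f3b was lower than GFP in TTP-AA. H3f3aos, with levels of 9.64 to 18.4, had 0.31 and 0.32 with counting errors of 0.33 and 0.30. Cenpa, the centromeric H3 variant that the symbol rule leaves out, had -0.07 and -0.28.

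Genes that make, cut or handle histone mRNA were read beside the histone genes. Of 15 genes for histone mRNA processing and decay, 12 were above 0 in TTP compared with GFP (median 0.15) and 12 in TTP-AA compared with GFP (median 0.06). Here and for the lists that follow, the shares of all listed genes above 0 were 49.7 and 50.4%. None of the 15 passed 1.5-fold in any comparison, against shares over all listed genes of 1.03 to 6.89%. Slbp, which encodes the stem-loop binding protein, had 4462, 4846 and 4616 in GFP, 4655, 5018 and 4822 in TTP, and 3562, 3852 and 3683 in TTP-AA. TTP-AA lay below both other groups without overlap, at -0.33 from GFP and -0.39 from TTP, while GFP and TTP overlapped (0.06). The U7 snRNP gene Lsm11 had 0.20 and 0.08 from GFP.

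Of 9 genes for histone transcription, 6 were above 0 in TTP compared with GFP (median 0.17) and 5 in TTP-AA (median 0.01). The coactivator gene Npat had 0.21 and 0.03, and Casp8ap2, whose product FLASH works in transcription and processing, 0.27 and 0.01. For 20 S phase genes the counts were 18 (median 0.14) and 11 (median 0.02), with Pcna at 0.09 and -0.17. For 21 histone chaperones they were 13 (median 0.07) and 10 (median -0.03). In TTP compared with GFP the medians of S phase and clustered histone genes were thus both 0.14, whereas in TTP-AA they were 0.02 and 0.13. The difference between these lists was not tested.

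Among 10 other RNAs chosen as lacking a canonical poly(A) tail, 3 were above 0 in TTP compared with GFP (median -0.28) and 9 in TTP-AA (median 0.05). Whether every transcript of these genes, Neat1 among them, lacked a tail in these cells was not measured. The RNA polymerase III transcripts Rn7sk and Rpph1 had -0.36 and -0.36 in TTP, Rmrp had 0.17, and the nuclear Malat1 had 0.33. The small RNAs varied widely with the replicate number. Rn7sk had 359956, 533676 and 212346 in GFP and 281430, 414116 and 166268 in TTP, where replicate 2 was highest and the groups overlap. The medians of the clustered histone genes and of these RNAs therefore differed in direction in TTP compared with GFP. This contrast too was not tested. Rmrp, Malat1 and Neat1, the 3 RNAs above 0, had the direction of the histone genes. Nor is a tail excluded for every clustered gene. The poly(A) signal AATAAA was in the last 50 annotated bases of 10 of 44 clustered genes (22.7%). The share was 61.6% in the other listed coding genes.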

How the data were processed

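Total RNA, depleted of rRNA, was sequenced as 50-base single-end reads in 9 libraries, 3 for each of GFP, TTP and TTP-AA, as grouped by the sample titles. Per the labels and methods, the authors trimmed reads with Trim Galore, aligned them with TopHat2 2.0.12 to GRCm38 with up to 2 placements per read, counted reads per gene with HTSeq and fitted DESeq2 1.6.3 with library date and condition as terms. Whether strand was used is not given in the sources used here. The authors' deposited level table is named as normalized counts but holds signal values that are fitted means. The 3 deposited comparison tables give a mean signal per gene, log2 fold changes with standard errors, statistics and p-values. From them only the listed genes, their names, their chromosomes and the mean signal were used, and 3 repeated identifiers were counted once. No per-sample column was left unmapped.

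Fitted reads were divided by median-ratio factors over the listed genes and averaged on the log2 scale per group, with no pseudocount (Python 3.11.15, numpy 2.4.6, pandas 2.3.3). The check for fitted means and the recovery of set differences of TTP minus GFP were tested on simulated data. The design planned for measured values could not be used, so differences are given as values with no test. Depth ranged from 21482954 to 102613526 fitted reads, and counting errors cover the reads only. Exons, transcripts and bases after the stop codon came from GENCODE mouse M21 (67 of 69 identifiers matched, the others being Hist1h2bh and Hist1h2bm) and promoters from RefSeq.

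Named were every variant gene, the 5 highest and 3 lowest clustered genes per length, per comparison the 3 largest positive and negative differences among clustered genes with a mean of at least 50, the members of counts of 5 or fewer, and fixed genes of the companion lists. Hist1h3d, Hist1h4a, Hist2h2bb, Hist2h3b and the other H1 genes were added after their values were seen, as were Emr1, Fcgr1 and Itgam. The members and lists were chosen with earlier results of these data known. Alternatives were other scalings, filters, a pseudocount of 1, protein coding genes only, left-out libraries and a replicate block. Centring on the chromosome and unique transcript windows were chosen after seeing the data, the latter in place of genome windows, since no genome sequence was used here.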

Additional observations from a re-analysis of the deposited data

Results flagged for a closer look

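Hist1h1a stood out by the size of its difference, with TTP and TTP-AA on opposite sides of GFP. All 3 TTP levels were below all 3 GFP levels, and all 3 TTP-AA levels were above them. The log2 difference of TTP-AA minus TTP was 1.89. Other members had the same order of group levels with a smaller difference of TTP-AA minus TTP. Among them were Hist1h1t, Hist1h4c, Hist2h2ab, Hist2h2be, H1f0 and H3f3a. The share of all listed genes with this order was not counted. The difference between the effects of the 2 forms was not tested here. The library values are fitted means, so the order of these levels follows from the fitted terms and is not agreement of 3 libraries. The authors' comparison columns were not used.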

How the results depend on the processing

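The clustered medians kept their sign against GFP under every scaling, filter and left-out library tried. With at least 80% unique transcript windows (13 genes) the clustered median in TTP minus GFP was 0.038 in place of 0.14. That median is the value of Hist2h2bb, which is annotated as a lincRNA. Without single libraries or replicate numbers the clustered medians ranged from 0.10 to 0.16 in TTP minus GFP, from 0.10 to 0.18 in TTP-AA minus GFP and from -0.04 to 0.04 in TTP-AA minus TTP. The number of clustered genes past 1.5-fold ranged from 0 to 1 in TTP-AA minus GFP and from 1 to 2 in TTP-AA minus TTP. It was 1 in TTP-AA minus TTP among genes with a mean of at least 50, and 1 in TTP-AA minus GFP after centring on the chromosome. With no filter 1 variant gene passed in TTP-AA minus TTP. Leaving out 1 library of a group lets the replicate-number term enter the difference, whereas leaving out a replicate number from all groups cannot change a fitted group difference beyond the scaling. With the replicate block (the median of differences within replicate numbers) the clustered median was 0.14 in TTP minus GFP and 0.13 in TTP-AA minus GFP. In fitted means these differences are equal apart from the library factor, so this setting could not move the medians further. No paired analysis was possible because fitted means leave no residual to test. The unique windows of the genome were not run. The variant medians ranged from -0.085 to 0.060, from 0.001 to 0.069 and from -0.046 to 0.063 in the same 3 comparisons, so that 2 of them changed sign. The error between cultures was not estimated here, which limits all differences near the medians.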
